A study of Mus musculus with 6 samples.

Results

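A set of 10 nuclear genes that build or maintain the mitochondrial respiratory chain were followed in the D2.OR line of mouse mammary carcinoma cells, which serves to model dormancy of disseminated breast cancer. They were Ndufb6, Ndufa5, Ndufaf4, Ndufaf6, Sdhaf3, Cox6c, Ndufa4, Stoml2, Tomm5 and Mtpap, chosen by name, and they were 10 of the 53647 features in the deposited table. Each was found by its Ensembl identifier without the version. All cells carried a lentivirus and had been selected with puromycin. The control group carried a scrambled hairpin RNA without a target (Scram, 3 libraries) and the other group a hairpin against SLX4IP (shSLX4IP, 3 libraries), a protein that binds the nuclease scaffold SLX4 and takes part in telomere maintenance. Cells were plated at 31500 per cm2 on a basement membrane extract (Cultrex) and kept for 7 days in medium with 10% serum and 5% Cultrex. The design asks how loss of SLX4IP changes the transcriptome in this 3-dimensional culture.

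The respiratory chain sits in the inner mitochondrial membrane. Complexes I and II pass electrons from NADH and succinate to ubiquinone, complex III passes them to cytochrome c, and complex IV (cytochrome c oxidase) hands them to oxygen, while complexes I, III and IV pump the protons that drive ATP synthase (complex V). Most subunits are encoded in the nucleus, made in the cytosol and imported, and a small core is encoded by mitochondrial DNA, so assembly needs both sets of genes and many dedicated assembly factors. NRF-1 and GABPA are transcription factors known for binding many promoters of nuclear respiratory genes.

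The values are read counts divided by a size factor per library and are called normalised values here. Genes of mitochondrial DNA were read by name. Nuclear genes can be read by name in 4 stretches only, on chromosomes 4, 6, 15 and 18. There the annotated genes of GRCm38 and the counted reads agree. A nuclear gene lying in these stretches is called readable, and all 10 members are. Outside them, genes that every cell uses, such as Actb and Eef1a1, were listed at 0 in all 6 libraries. So was Slx4ip, which therefore gave no check of the hairpin. The recovered depth was between 5433573 and 6693111 reads per library. The mammary label could not be checked either, since of 7 epithelial markers only Grhl2 was readable, at 2.93 to 68.8. Of 6 fibroblast markers only Col1a2 was readable. It was at 20226 to 25022 in Scram and at 239 to 302 in shSLX4IP, and its part in the results below was not tested. None of the 3 endothelial, 5 leukocyte and 6 adipocyte and muscle markers was readable. Fewer cells of a type and less RNA per cell cannot be told apart in these bulk samples.

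The RefSeq table of promoter sequences (GRCm38.p6) held no window for Cox6c and Ndufaf6, and none was used for Mtpap. For the other 7 of the 10 genes, windows ran from 250 bases before to 50 bases after the start of transcription. Of these, 3 windows are printed because they belong to genes that lay on different sides of the comparison. Ndufaf4 was lower in shSLX4IP, Ndufb6 had lower values in each shSLX4IP library and Sdhaf3 had higher values in each. Capitals mark matches to the motifs searched on both strands, that of NRF-1, CCGGAAG for GABPA and AANATGGC for YY1, another factor of such promoters. The windows lie at chr4:24897833-24898132 (plus strand, Ndufaf4), chr4:40279372-40279671 (minus strand, Ndufb6) and chr6:6955768-6956067 (plus strand, Sdhaf3), each printed 5′ to 3′ on its gene's strand.
Ndufaf4: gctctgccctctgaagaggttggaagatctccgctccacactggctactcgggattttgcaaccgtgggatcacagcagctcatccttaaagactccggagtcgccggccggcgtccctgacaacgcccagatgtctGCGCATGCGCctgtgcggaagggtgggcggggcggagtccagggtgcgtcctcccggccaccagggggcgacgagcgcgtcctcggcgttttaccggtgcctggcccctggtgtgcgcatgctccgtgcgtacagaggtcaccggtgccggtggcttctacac
Ndufb6: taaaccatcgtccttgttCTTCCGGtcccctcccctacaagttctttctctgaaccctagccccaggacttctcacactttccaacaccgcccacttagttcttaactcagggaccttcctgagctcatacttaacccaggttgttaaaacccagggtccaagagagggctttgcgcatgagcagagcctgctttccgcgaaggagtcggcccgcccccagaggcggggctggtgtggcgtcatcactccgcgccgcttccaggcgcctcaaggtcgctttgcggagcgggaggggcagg
Sdhaf3: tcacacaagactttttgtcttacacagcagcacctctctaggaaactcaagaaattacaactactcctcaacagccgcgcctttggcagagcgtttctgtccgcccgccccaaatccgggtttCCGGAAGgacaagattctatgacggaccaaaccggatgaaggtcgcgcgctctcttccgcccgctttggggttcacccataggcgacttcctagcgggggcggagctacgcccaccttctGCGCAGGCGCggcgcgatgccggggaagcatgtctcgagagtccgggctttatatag

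The NRF-1 motif stood in the windows of Ndufaf4, Sdhaf3 and Ndufa5. In Ndufaf4 they read GCGCATGCGC, which matches on both strands, and start 113 bases before the start of transcription. In Sdhaf3 they read GCGCAGGCGC, 7 bases before it. The GABPA letters stood in the windows of Ndufb6, Sdhaf3 and Stoml2, at 232, 127 and 105 bases before the start. The windows of Ndufa4 and Tomm5 held none of the 3 motifs, and YY1 letters were found in none of the 7 genes. Over all 32851 windows of this length in the table, 4.60% held the NRF-1 motif, 8.86% that of GABPA and 6.05% that of YY1. The windows of the 7 genes held 7 (Tomm5) to 28 (Ndufaf4) CG dinucleotides, beside a median of 7 over all windows. The shares are therefore not those of windows of like base composition, and Ndufa5 had 2 windows. The motifs do not overlap each other in the printed windows. A match is only a match of letters, and the NRF-1 letters stood before genes with lower and with higher values in shSLX4IP.

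Cox6c and Ndufaf4 were the members that passed the threshold in limma with all 6 libraries. Cox6c fell in shSLX4IP to 0.714% of its mean in Scram, and Ndufaf4 fell to 29.0%. No member was called higher by limma with all 6 libraries. Of the members not called, Sdhaf3 was higher, and Ndufb6 and Tomm5 were lower, at an unadjusted limma p under 0.05. Every feature called passes that looser cut too. At least 23.0% of all features tested and 41.1% of readable nuclear ones therefore pass it. DESeq2 called Sdhaf3 higher and 6 members lower, beside 1602 and 1624 of all features. By edgeR no member was called higher and 3 were called lower, beside 712 and 854 of all features. The test was limma on log2(value + 1), 2-sided, with Benjamini-Hochberg adjustment over all 8127 features with a mean of at least 10 and a threshold of 0.05. All 10 members passed that filter. Over all features tested 23.0% were called, 11.7% higher and 11.3% lower, and over the 431 readable nuclear ones 41.1% were called, 18.3% higher and 22.7% lower. The 2 of 10 members called are near the first share and under the second. A member without a call is not shown to be unchanged. In simulated data the test called none of the 2-fold changes, the smallest put in. Far fewer features changed there than were called here, and 226 features here were called at under 2-fold. The simulation therefore does not give the power of the test in these data. A log2 fold change is written below as shSLX4IP over Scram, with its standard error (SE), and it understates the change of low genes.

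**Figure D1:**
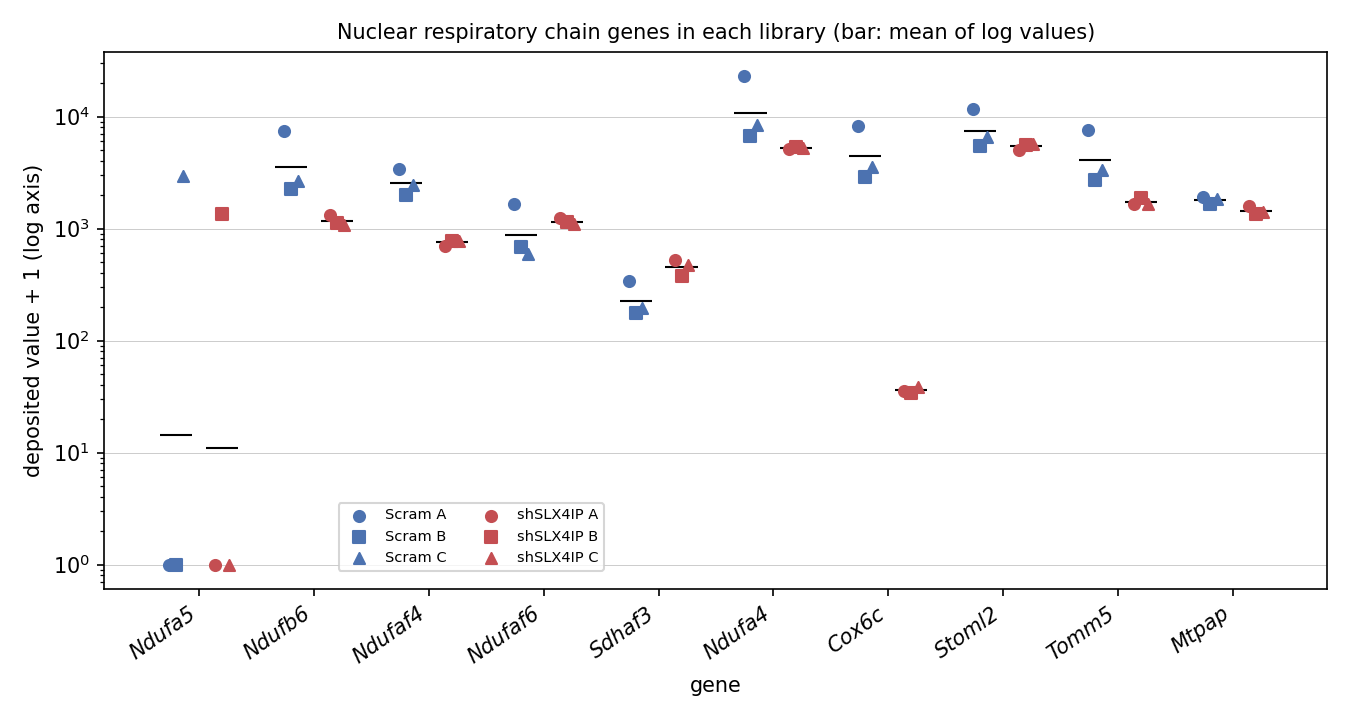
Normalised value + 1 (log axis) of each gene in each library, Scram in blue and shSLX4IP in red, with a bar at the mean of the log values of each group of 3. Cox6c lies between 33.2 and 37.4 in shSLX4IP and at 2909 or above in Scram, Scram A is the highest Scram library for 9 of the 10 genes, and Ndufa5 is listed at 0 in 4 libraries.

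Complex I was represented by 2 of its accessory subunits. Ndufb6 (ENSMUSG00000071014.11, chromosome 4, 40270591 to 40279421, minus strand) encodes a subunit of the membrane arm. The normalised values of Scram A to C were 7464, 2267 and 2661, and those of shSLX4IP A to C were 1324, 1121 and 1076. Every shSLX4IP library lay below every Scram library, and Scram A was 3.03 times the mean of Scram B and C. The log2 fold change was -1.61 (SE 0.47, limma adjusted p = 0.0598), so it did not pass with all libraries. Without Scram A it was -1.07 (SE 0.13) and passed (limma adjusted p = 0.00345). It shares 257 exonic bases with Smim27 on the other strand, whose values were 26.2 to 168.

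Ndufa5 (ENSMUSG00000023089.13, chromosome 6, 24518666 to 24528013, minus strand) encodes a subunit of the arm that reaches into the matrix. It was listed at 0 in Scram A and B and in shSLX4IP A and C. It stood at 2937 in Scram C and at 1361 in shSLX4IP B. These are 3222 and 1394 recovered reads, so the listing of 0 and of a high value did not follow the groups. An exact 0 in this table can be a failed estimate, and its fitted values are not read as a change. With an adjusted p = 0.955 in limma, the 95% interval of its log2 fold change ran from -11.08 to 10.34, which leaves its direction unknown.

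Of the 2 assembly factors of complex I, Ndufaf4 was called lower and Ndufaf6 was not called. Ndufaf4 (ENSMUSG00000028261.14, chromosome 4, 24898083 to 24905001, plus strand) encodes a factor needed for early steps of complex I assembly. Scram A to C held 3378, 1981 and 2430, and shSLX4IP A to C held 704, 779 and 774. The groups were far apart, and the shSLX4IP libraries had a mean of 752 with an SD of 42.0. Its log2 fold change was -1.75 (SE 0.23, limma adjusted p = 0.00491). It was called in each of the 17 other settings tried, with log2 fold changes from -1.93 to -1.41. Its exons overlapped no other annotated gene, and no transcript of another gene matched it over 150 bases at 90% identity or more.

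Ndufaf6 (ENSMUSG00000050323.15, chromosome 4, 11051045 to 11076205, minus strand) encodes another assembly factor of complex I. Values of 1672, 683 and 594 were listed for Scram A to C. Those for shSLX4IP A to C were 1229, 1132 and 1103. The shSLX4IP values lay above Scram B and C and below Scram A, so the groups overlapped. With all libraries the log2 fold change was 0.39 (SE 0.41, limma adjusted p = 0.494; 95% interval -0.63 to 1.41). Without Scram A it was 0.86 (SE 0.10) and passed (limma adjusted p = 0.00304). It has no exonic overlap with another gene.

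Sdhaf3 (ENSMUSG00000042505.7, chromosome 6, 6956004 to 7042979, plus strand) encodes a factor for assembly of complex II, where it helps the iron-sulfur subunit to mature. Libraries A to C held 337, 176 and 194 in Scram, and in shSLX4IP they held 525, 378 and 471. Each shSLX4IP library lay above each Scram library, with Scram A and shSLX4IP B the nearest pair. Per kilobase it was the lowest member in Scram. The log2 fold change was 1.00 (SE 0.31, limma adjusted p = 0.0711), with a 95% interval from 0.23 to 1.78. Without Scram A it was 1.29 (SE 0.17) and passed (limma adjusted p = 0.00466).

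Complex IV held the member with the largest difference, Cox6c, and the member with the highest level, Ndufa4. Cox6c (ENSMUSG00000014313.16, chromosome 15, 35925886 to 35938246, minus strand) encodes a small nuclear subunit of cytochrome c oxidase. Its normalised values were 8256, 2909 and 3553 for Scram A to C, and 34.4, 33.2 and 37.4 for shSLX4IP A to C. The 3 shSLX4IP values rest on 38, 34 and 47 recovered reads, against 3114 or more in each Scram library. A log2 fold change of -6.94 (SE 0.42, limma adjusted p = 0.000506) resulted, and it stayed between -7.23 and -6.48 in the 17 other settings, each with a call. Its gene shares 250 exonic bases with Vps13b on the other strand. Vps13b was at 934 to 1116 in Scram and at 1010 to 1204 in shSLX4IP (log2 fold change 0.12, limma adjusted p = 0.581). The transcripts of Cox6c2 and Gm16399, both annotated as pseudogenes, match Cox6c over up to 231 bases at 97.0% identity, so reads could be divided among the copies. What part overlap and copies have in the values was not tested.

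Ndufa4 (ENSMUSG00000029632.8, chromosome 6, 11900292 to 11907497, minus strand) was named as a complex I subunit and is now placed in complex IV. Here Scram A to C held 23062, 6689 and 8326, and shSLX4IP A to C held 5146, 5319 and 5256. All shSLX4IP values were below all Scram values, and Scram A was 3.07 times the mean of Scram B and C. With all libraries the log2 fold change was -1.05 (SE 0.47, limma adjusted p = 0.156). Without Scram A it was -0.51 (SE 0.11) and passed (limma adjusted p = 0.0175), and with the trend with exonic length removed it was -0.30 (limma adjusted p = 0.333). Its transcripts match 3 pseudogenes over up to 246 bases at 93.1% identity. Within complex IV the mitochondrially encoded mt-Co1, a catalytic subunit, rose from 143800 ± 10159 to 188852 ± 3825 (SD, 3 libraries in each group, limma adjusted p = 0.0363). That call held in 5 of 16 other settings only. It was lost without any 1 of the libraries other than Scram A, with a minimum mean of 50, with TMM factors, equal totals or quantile normalization, in limma without the trend and in edgeR (adjusted p from 0.0573 to 0.385). The other catalytic subunit, mt-Co2, was at 29861 to 64684 in Scram and at 20377 to 21365 in shSLX4IP and did not pass (log2 fold change -0.96, limma adjusted p = 0.0717). Without Scram A it was at -0.62 and passed (limma adjusted p = 0.00382), and it passed with equal totals (-0.61), with quantile normalization (-0.47) and in DESeq2 (-1.05). The complex IV subunit mt-Co3, also encoded by mitochondrial DNA, was at 29476 to 51812 in Scram and at 18444 to 19569 in shSLX4IP. It was called lower (log2 fold change -0.92, limma adjusted p = 0.0431). It was also called without Scram A (-0.66), with equal totals (-0.57), with quantile normalization (-0.40), in edgeR and in DESeq2. Its calls with other libraries left out are not given here.

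Stoml2, Tomm5 and Mtpap serve the chain without being subunits of it. Stoml2 (ENSMUSG00000028455.16, chromosome 4, 43027690 to 43031710, minus strand) encodes an inner membrane scaffold protein that binds cardiolipin and prohibitins. The Scram libraries A to C were at 11621, 5508 and 6542, and the shSLX4IP libraries A to C at 5078, 5537 and 5643. Scram B lay inside the range of shSLX4IP. The log2 fold change was -0.47 (SE 0.29, limma adjusted p = 0.276; 95% interval -1.19 to 0.25), and without Scram A it was -0.15. The pseudogene Gm5626 matches it over 1050 bases at 95.2% identity.

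Tomm5 (ENSMUSG00000078713.9, chromosome 4, 45105208 to 45108114, minus strand) encodes a small subunit of the outer membrane pore through which imported subunits enter. For Scram A to C the values were 7550, 2694 and 3336, and for shSLX4IP A to C they were 1642, 1883 and 1651. The groups did not overlap, and Scram A was the highest library by far. Its log2 fold change was -1.24 (SE 0.40, limma adjusted p = 0.0752). Without Scram A it was -0.80 (SE 0.12) and passed (limma adjusted p = 0.00728). The pseudogene Gm8069 matches Tomm5 over 154 bases at 98.7% identity.

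Mtpap (ENSMUSG00000024234.8, chromosome 18, 4375592 to 4397330, plus strand) encodes the mitochondrial poly(A) polymerase, which adds tails to the messages of mitochondrial DNA. Scram A to C stood at 1905, 1666 and 1846, and shSLX4IP A to C at 1581, 1343 and 1417. The groups did not overlap, by a narrow margin between Scram B and shSLX4IP A. Its log2 fold change was -0.32 (SE 0.14, limma adjusted p = 0.151), and it was 0.024 with library totals made equal. Mtpap was the member in which Scram A stood least apart, at 1.09 times the mean of Scram B and C. Its exons overlap those of a gene on the same strand and of an antisense gene, both listed at 35.3 or below.

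**Figure D2:**
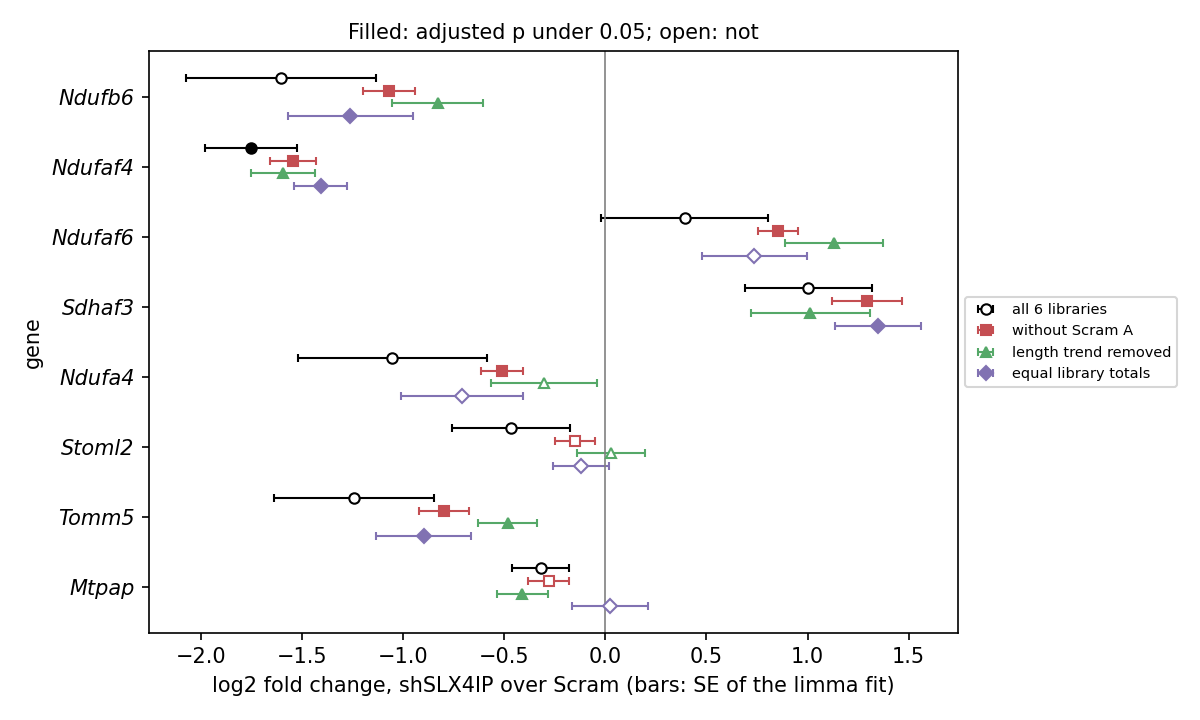
Log2 fold change of shSLX4IP over Scram with the SE of the limma fit for 8 genes, with all 6 libraries, without Scram A, with the trend with exonic length removed and with library totals made equal. Ndufaf4 is called in each of the 4, Ndufb6, Tomm5 and Sdhaf3 in 3, and Stoml2 lies near 0 in the last 3. Cox6c (-6.94) and Ndufa5, which is listed at 0 in 4 libraries, are not drawn.

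Across the 10 members, 7 had groups without overlap, lower in shSLX4IP in 6 and higher in 1. Over all features tested such separation held in 53.5%, with shSLX4IP lower in 23.4% and higher in 30.2%. Over readable nuclear features the shares were 67.5%, 38.1% and 29.5%. The median log2 fold change of the 9 members other than Ndufa5 was -1.05, beside 0.25 over all features tested and -0.15 over readable nuclear ones. That median depended on the libraries and the scaling. It was -0.51 without Scram A, -0.50 with quantile normalization and -0.41 with the trend with exonic length removed, and -1.40 without Scram B. With Ndufa5 it was -0.76, and from -1.47 to -0.36 in the other settings. Of those 9 members 7 had a log2 fold change below 0, and Ndufaf6 and Sdhaf3 had one above 0, while Mtpap changed sign with equal totals, Stoml2 with the length trend removed and both with quantile normalization. By function, the assembly factors were divided, with Ndufaf4 called lower and Ndufaf6 and Sdhaf3 above 0 without a call. The subunits Ndufb6, Cox6c and Ndufa4 lay below 0, with Cox6c past the threshold.

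The number of members called depended on Scram A. Without it 5 members were lower (Cox6c, Ndufaf4, Ndufb6, Tomm5 and Ndufa4) and 2 higher (Sdhaf3 and Ndufaf6). Without that library 42.7% of all features were called (23.3% higher, 19.4% lower) and 66.1% of readable nuclear features (30.9% higher, 35.3% lower), so the 7 of 10 members are close to the share of readable genes at large. Without Scram B 4 members were lower (Cox6c, Ndufaf4, Ndufb6 and Tomm5), beside 23.9% of all features called (13.1% higher, 10.8% lower). Scram A also ran high in short genes. This was measured over 346 readable nuclear genes, with a mean of 100 or more and each Scram library above 0, as the log2 ratio of Scram A to the average of Scram B and C. Its median was 0.87 in the 116 genes of shortest exonic length (306 to 3386 bases) and -0.27 in the 115 longest (5995 bases and above). The log2 ratio of Scram B to Scram C had medians of -0.18 and 0.11 in the same sets. The members had a median exonic length of 2202 bases, against 4129 over readable nuclear features tested. Scram A exceeded the mean of Scram B and C by 3.07-fold in Ndufa4, 3.03-fold in Ndufb6, 2.62-fold in Ndufaf6, 2.56-fold in Cox6c and 2.50-fold in Tomm5. It did so by 1.93-fold in Stoml2, 1.82-fold in Sdhaf3 and 1.53-fold in Ndufaf4. With a smooth trend with exonic length removed within each library, 5 members were lower (Cox6c, Ndufaf4, Ndufb6, Tomm5 and Mtpap) and 2 higher (Ndufaf6 and Sdhaf3), and 62.6% of the 431 readable nuclear features were called in that fit (33.2% higher, 29.5% lower). The sum of all values was 8948118 in Scram A and 5276405 to 5974334 in the other libraries. As a share of that sum, Ndufaf4 made up 0.0378%, 0.0347% and 0.0407% in Scram A to C and 0.0133% to 0.0147% in shSLX4IP. For this gene Scram A then lay between the other Scram libraries. Scram A stayed the highest Scram library for Ndufa4 (0.258%, against 0.117% and 0.139%), Ndufb6, Ndufaf6, Cox6c, Sdhaf3, Stoml2 and Tomm5. For Mtpap it was the lowest (0.0213%, against 0.0292% and 0.0309%). With library totals made equal in this way 1 member was called higher (Sdhaf3) and 4 lower (Cox6c, Ndufaf4, Ndufb6 and Tomm5), beside 22.8% of all features (13.8% higher, 9.07% lower). Quantile normalization called Cox6c, Ndufaf4, Ndufb6 and Tomm5 lower and none higher, beside 28.3% of all features (12.7% higher, 15.6% lower). DESeq2 on the recovered reads called 1 member higher and 6 lower, beside 40.4% of all features (20.1% higher, 20.3% lower). Readable nuclear features, to which all members belong, were called more often than all features with all libraries (41.1% against 23.0%) and without Scram A. Their share was not counted without Scram B, with equal totals, with quantile normalization, in edgeR or in DESeq2.

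**Figure D3:**
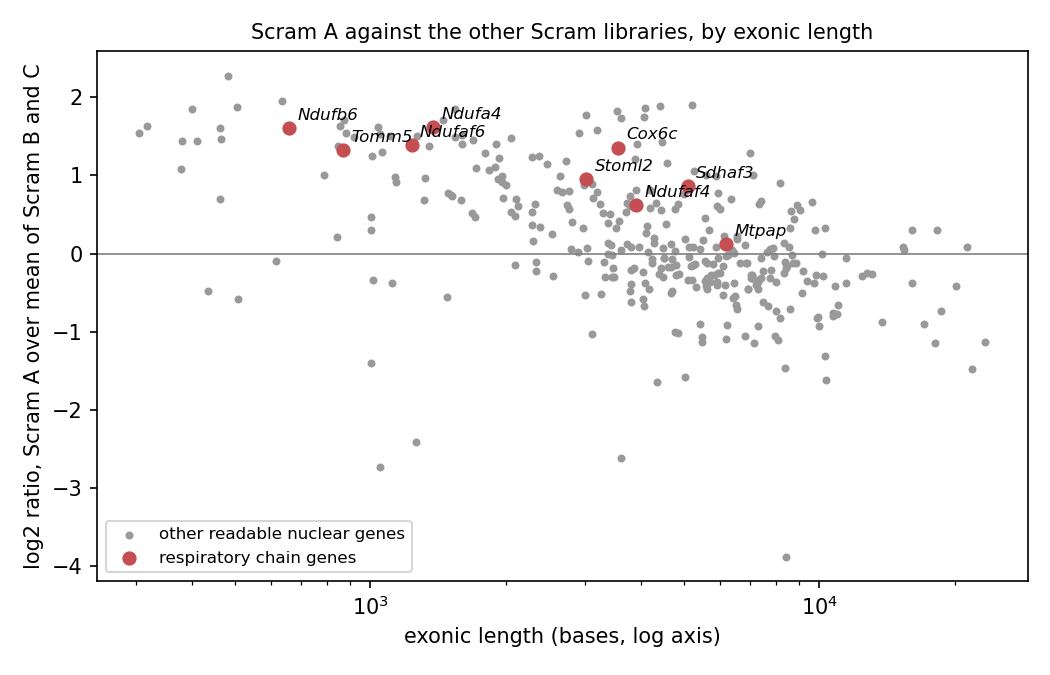
Scram A over the average of the other Scram libraries (log2 ratio) against exonic length (log axis) for 346 readable nuclear genes, with the respiratory chain genes in red. Shorter genes lie higher, and the respiratory chain genes lie between Mtpap, near 0, and Ndufa4, the highest of them.

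Levels between genes were compared per kilobase of the median annotated coding transcript. Ndufa4 was the highest member in both groups, at 27592 ± 19604 in Scram and 11391 ± 190 in shSLX4IP (normalised value per kilobase, SD, n = 3 each). In Scram it was followed by Stoml2 (8748 ± 3628), Cox6c (8096 ± 4817), Ndufb6 (7253 ± 5080) and Tomm5 (6869 ± 4003), whose spreads overlapped. Within Scram B and within Scram C their order was Stoml2, Cox6c, Tomm5 and Ndufb6. Within Scram A it was Cox6c, Ndufb6, Stoml2 and Tomm5. By mean, Ndufaf4 (1206 ± 331), Ndufaf6 (909 ± 553) and Mtpap (797 ± 55.1) came next, each within the spread of its neighbour in the order of means. Sdhaf3 was last at 54.5 ± 20.4. In shSLX4IP the spread was smaller. There Ndufa4 was followed by Stoml2 (6008 ± 333), Tomm5 (2618 ± 207), Ndufb6 (2061 ± 233), Ndufaf6 (1068 ± 60.9), Mtpap (639 ± 53.7) and Ndufaf4 (349 ± 19.5). Sdhaf3 (106 ± 17.3) and Cox6c (57.8 ± 3.59) were the lowest. The libraries of neighbours in this order did not overlap. On this scale Ndufaf4 stood above Ndufaf6 in each Scram library and below it in each shSLX4IP library. Per kilobase of all annotated exons it stood above Ndufaf6 in Scram C alone (623 and 481), and below it in Scram A (866 and 1354), in Scram B (508 and 553) and in each shSLX4IP library. Also per kilobase of all annotated exons, Ndufb6 (6268) and Tomm5 (5215) came before Stoml2 (2611) in Scram. Ndufa5 has no place in these orders.

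Few other genes of the pathway were readable. Of the lists compiled for it, 2 of 36 complex I subunits with a row, 2 of 51 nuclear subunits of complexes II to V and 3 of 54 assembly factors were readable, and all 7 are members. Of the supporting genes 5 more were readable and tested, of which 1 was called. Slc25a13, the mitochondrial aspartate-glutamate carrier, rose from 2790 ± 231 to 4320 ± 204 (SD, 3 libraries in each group), a log2 fold change of 0.63 (SE 0.13, limma adjusted p = 0.0202). The call was lost without Scram C or without any 1 shSLX4IP library (limma adjusted p from 0.0628 to 0.0907), and in limma without the trend (adjusted p = 0.0859). The other 4 did not pass with all libraries. Coq3, a methyltransferase of ubiquinone synthesis, was at 1223 to 2349 in Scram and 909 to 1017 in shSLX4IP (log2 fold change -0.71, limma adjusted p = 0.118). It passed without Scram A (-0.42, limma adjusted p = 0.0177) and in DESeq2 (-0.78, adjusted p = 0.0274). Mrpl50, a protein of the mitochondrial ribosome, was at 2273 to 3919 and 1982 to 2037 (log2 fold change -0.49, limma adjusted p = 0.169). It passed without Scram A (-0.26, limma adjusted p = 0.0475), and with the trend with exonic length removed it was at 0.22. Slc25a51, the mitochondrial NAD+ carrier, was at 3863 to 4349 and 3811 to 4353. Nrf1, which encodes the transcription factor NRF-1 itself, held 4014, 3098 and 3278 in Scram A to C and 2871, 2679 and 2800 in shSLX4IP A to C. Its groups did not overlap, with a log2 fold change of -0.31 (SE 0.15, limma adjusted p = 0.178) and 0.038 with library totals made equal. Pdk4, a kinase that restrains pyruvate dehydrogenase, was readable and listed at 0 in all 6 libraries.

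Of the 13 proteins encoded by mitochondrial DNA, the partners of these subunits, 7 were lower and 1 higher, beside 11.3% lower and 11.7% higher over all features tested. Their median log2 fold change was -0.76. With library totals made equal 6 were lower and 0 higher in limma (median -0.41), and with quantile normalization 5 were lower and 0 higher (median -0.12). Without any 1 shSLX4IP library 1 was lower and 0 higher, and without Scram C 3 were lower and 0 higher. Without Scram A 9 were lower and 1 higher. With no minimum mean 4 were lower and 1 higher, and in limma without the trend 3 were lower and 0 higher. The genes with the highest values after mt-Co1 were mt-Atp6 of complex V (log2 fold change -0.76, limma adjusted p = 0.0333) and mt-Cytb of complex III (log2 fold change -0.79, limma adjusted p = 0.00512). Of 16 other settings, mt-Atp6 was called in 10 and mt-Cytb in 11. Both calls were lost without any 1 shSLX4IP library and with quantile normalization, where mt-Atp6 was at -0.12 (limma adjusted p = 0.505) and mt-Cytb at -0.35 (limma adjusted p = 0.374). The call of mt-Atp6 was also lost without Scram C and in limma without the trend (adjusted p = 0.0765 and 0.0906), and that of mt-Cytb with library totals made equal (limma adjusted p = 0.207). Whether the nuclear and the mitochondrial genes differ in response was not tested.

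The readable nuclear genes whose profile over the 6 libraries was most like the mean profile of the members were Nr4a3, Usp14 and Pon2. Among 421 genes, Pearson's r of log2(value + 1) with that profile was 0.91, 0.85 and 0.85 (a description over 6 libraries that share depth and group). The mean profile is weighted towards Cox6c and Ndufa5, whose log values varied most. Pon2 was at 3454 to 5950 in Scram and 1355 to 1581 in shSLX4IP.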

How the data were processed

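Poly(A) libraries were made with a stranded kit from 1 µg of total RNA, per the labels' protocols. Tools listed in the submitters' processing notes are STAR 2.7.7, StringTie 2.1.7, fastp 0.19.5 and DESeq2 1.22.1, with the build GRCm38 (mm10). For their roles, the annotation release and the strand setting, nothing is stated. The deposited signal is gene counts divided by a size factor per library: 99.98% or more of the values above 0 lay within 0.1 of a whole multiple of 1 step. Those whole numbers are the recovered reads.

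Symbols, exons and coordinates come from GENCODE M21 (GRCm38), matched without version for 52093 of 53647 features. The version matched for 35, all mitochondrial. Readable stretches were found by ordering protein-coding genes along each chromosome, scoring a mean of at least 1000 as 3 and any other as -1, and keeping segments that score at least 30. There were 4, on chromosomes 4, 6, 15 and 18.

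The test was limma 3.58.1 in R 4.3.3 with an intensity trend on log2(value + 1), over features with a mean of at least 10, without a block. Tested on simulated data, it recovered the median size of the changes put in but called none of the smaller ones, which were 2-fold. Far fewer features changed in that simulation than were called here, so it does not give the power of the test in these data. edgeR 4.0.16 and DESeq2 1.42.0 ran on the recovered reads. Other settings were pseudocounts of 0.5 and 5, a minimum mean of 50 or none, TMM factors, equal totals, quantile normalization, no trend, a loess trend with exonic length removed (adjusted over 431 readable nuclear features) and each library left out. All 10 members are named, with every readable and tested gene of the pathway lists, up to 4 mitochondrial genes by mean value, and mt-Co3. The members and lists were chosen with earlier results of these data known. Replicates are biological per the labels, without mention of separate cultures, so p-values measure the spread between these samples, which may be technical. The columns carry letters and the labels numbers, so a letter only names a library.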

Additional observations from a re-analysis of the deposited data

How the results depend on the processing

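No paired analysis was possible because the columns carry letters that the labels do not tie to the replicate numbers. Cox6c and Ndufaf4 were called lower in each of 17 other settings. Leaving out 1 library at a time gave log2 fold changes from -7.23 to -6.48 for Cox6c and from -1.93 to -1.54 for Ndufaf4, and from -1.40 to -0.51 for Ndufa4, -1.93 to -1.07 for Ndufb6, -1.54 to -0.80 for Tomm5, 0.82 to 1.29 for Sdhaf3, 0.11 to 0.86 for Ndufaf6, -0.69 to -0.15 for Stoml2 and -0.39 to -0.27 for Mtpap. For Ndufa5 the range was -3.84 to 3.47, with a change of sign without Scram C (3.47) and without shSLX4IP A or C (1.37 each). In these fits 0 to 2 members were higher and 2 to 5 lower. Over all features 433 to 1895 were higher and 410 to 1573 lower, the highest counts without Scram A and the lowest without a shSLX4IP library. Without Scram C 641 were higher and 489 lower. Ndufb6 and Tomm5 passed without Scram A and without Scram B. By quantile normalization Slc25a51 passed (0.54). With 1 library left out it ranged from -0.011, without shSLX4IP B, to 0.087.

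With library totals made equal, an alternative chosen after seeing the data, 1 member was higher and 4 were lower. Ndufb6 (-1.26), Tomm5 (-0.90) and Sdhaf3 (1.35) then passed, and Mtpap (0.024) and Nrf1 (0.038) changed sign. The setting moved the median of all features from 0.25 to 0.58 and the split of higher and lower calls from 952 and 920 to 1119 and 737. Quantile normalization moved that median to -0.0028 and called 4 members lower and 1033 features higher and 1269 lower. Under it Ndufb6 (-1.20) and Tomm5 (-0.76) passed, and Stoml2 (0.10), Mtpap (0.036) and Nrf1 (0.16) changed sign. DESeq2 called 1602 features higher and 1624 lower, and 1 member higher and 6 lower. By it Ndufa4 (-1.29), Ndufb6 (-1.82), Tomm5 (-1.40), Mtpap (-0.32) and Sdhaf3 (0.96) passed. With the length trend removed 2 members were higher and 5 lower. Ndufb6 (-0.83), Tomm5 (-0.48), Mtpap (-0.41), Ndufaf6 (1.13) and Sdhaf3 (1.01) passed there, and Ndufa5 (0.38), Stoml2 (0.028) and Mrpl50 (0.22) changed sign. Ndufb6 also passed with TMM factors (-1.60) and with edgeR (-1.77). The cause of these differences was not tested. Settings not named above kept the counts of calls over all features and over the members within 1.5 times and each member on its side of the threshold. Apart from Ndufa5, each member had at least 34 recovered reads in every library, the fewest in Cox6c in shSLX4IP (34 to 47). The effect of depth was not tested.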
